A study of Mus musculus with 6 samples.

Results

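The unfolded protein response was followed in 33 genes of the 22599 gene symbols in the count table. The members were matched by symbol and comprise the stress sensors, the transcription factors they act through, the chaperones and folding enzymes of the endoplasmic reticulum (ER), the genes of ER-associated degradation (ERAD) and the targets of ATF4. All 33 were found and all passed the filter on low counts. RNA was sequenced from liver in 3 libraries of mice with floxed Ncor1 (NcoR1fl/fl, genotype WT, called flox here) and 3 of NcoR1ΔHep mice (genotype knockdown NcoR1), whose name gives hepatocytes as the cells that lose the gene. The titles of all 6 libraries give 0 h, while their treatment label names liver ischemia-reperfusion, and the labels do not say what a liver at 0 h underwent. All mice ate chow under a daily light and dark cycle. The labels give no Cre driver, strain, age or sex. Nor do they say whether a library is 1 mouse, and p-values therefore reflect only the variation among libraries, which may be technical.

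The ER folds secreted and membrane proteins, and hepatocytes, which export albumin, lipoproteins and clotting factors, carry a heavy folding load. When unfolded proteins accumulate, the sensors IRE1 (Ern1), PERK (Eif2ak3) and ATF6 (Atf6) are released from the chaperone BiP (Hspa5). IRE1 cuts Xbp1 mRNA so that a strong activator is made, PERK phosphorylates eIF2α, which slows translation while favouring Atf4, and ATF6 is cleaved to a transcription factor that raises chaperone genes. NcoR1 is a corepressor that holds down genes bound by nuclear receptors. The comparison asked whether the 3 arms of this response had the same level in livers labelled flox and NcoR1ΔHep.

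IRE1 acts on Xbp1 by removing a short segment within an exon, shown here because the gene counts used below cannot tell the cut from the uncut form. A search of a protein-coding Xbp1 transcript (GENCODE M21, GRCm38) for pairs of the letters CNGCAG spaced for a segment of 26 bases found 2 pairs. The pair in exon 4, at chr11:5524279-5524304 on the plus strand, is the segment known to be removed. It is printed in capitals with 15 bases on either side.
Xbp1 IRE1 cut segment: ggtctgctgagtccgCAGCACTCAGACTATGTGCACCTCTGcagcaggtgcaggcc

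Transcripts of the chaperones are known to rise through the ER stress response element (ERSE), to which ATF6 and spliced XBP1 bind with NF-Y. The 250 bases before the start of each gene in a RefSeq table (GRCm38.p6, 28 members matched) were searched on both strands for ERSE (CCAAT and CCACG with any 9 bases between), ERSE-II (ATTGG and CCACG with any 1 base between), the unfolded protein response element (TGACGTGG) and the C/EBP-ATF response element bound by ATF4 (TGATGNAA). ERSE was found in 9 of the 28 members and in 0.113% of all 32851 windows of that length. ERSE-II and the unfolded protein response element can overlap ERSE in the letters CCACG. ERSE-II was found in 1 member (0.0304% of windows), the unfolded protein response element in 0 members (0.563%), and the ATF4 element in 3 members (3.45%). A match is a description of the letters and was not measured as binding. The ERSE matches are shown with 10 bases on either side, read in the direction of the element, with its fixed letters in capitals. They are shown because fold changes are given below for the members with and without the element.
Calr, chr8:84847065-84847103, plus strand: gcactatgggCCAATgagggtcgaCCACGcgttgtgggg
Canx, chr11:50325790-50325828, minus strand: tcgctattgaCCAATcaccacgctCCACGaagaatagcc
Creld2, chr15:88819510-88819548, minus strand: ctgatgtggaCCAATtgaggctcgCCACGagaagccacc
Derl3, chr10:75893232-75893270, minus strand: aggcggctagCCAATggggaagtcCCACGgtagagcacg
Dnajc3, chr14:118937817-118937855, plus strand: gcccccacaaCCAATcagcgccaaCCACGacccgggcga
Hsp90b1, chr10:86705523-86705561, plus strand: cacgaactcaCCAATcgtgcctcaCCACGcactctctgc
Hsp90b1, chr10:86705628-86705666, minus strand: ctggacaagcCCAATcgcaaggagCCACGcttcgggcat
Hspa5, chr2:34772015-34772053, plus strand: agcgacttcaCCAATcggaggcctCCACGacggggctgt
Pdia6, chr12:17266481-17266519, plus strand: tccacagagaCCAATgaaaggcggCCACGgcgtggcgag
Syvn1, chr19:6046522-6046560, plus strand: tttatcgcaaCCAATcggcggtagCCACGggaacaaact

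The upstream window of Hspa5, which encodes BiP, holds its ERSE match 65 to 47 bases before the start and is shown whole as the best known target of the response. The fixed letters are in capitals.
Hspa5 upstream window, chr2:34771840-34772089, plus strand: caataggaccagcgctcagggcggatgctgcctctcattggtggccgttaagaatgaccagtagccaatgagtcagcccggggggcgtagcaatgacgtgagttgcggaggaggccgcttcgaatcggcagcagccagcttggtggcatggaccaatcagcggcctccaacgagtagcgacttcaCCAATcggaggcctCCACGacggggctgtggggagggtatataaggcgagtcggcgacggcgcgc

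The ERSE-II match of Herpud1 and the ATF4 elements of Asns, Chac1 and Herpud1 are shown in the same way.
Asns, chr6:7693215-7693242, minus strand: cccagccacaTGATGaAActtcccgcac
Chac1, chr2:119351039-119351066, minus strand: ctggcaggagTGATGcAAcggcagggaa
Herpud1, chr8:94386307-94386334, minus strand: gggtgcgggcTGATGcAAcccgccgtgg
Herpud1, chr8:94386367-94386397, plus strand: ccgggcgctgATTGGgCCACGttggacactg

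The libraries held 36975231 to 38470468 counts, of which the 33 members took 0.669% to 0.963%. Ncor1 itself was at 6.70 to 7.72 FPKM (a level scaled to gene length and library size) in flox and at 4.93 to 6.63 FPKM in NcoR1ΔHep, with an edgeR log2 fold change of -0.31 (adjusted p = 0.931), so the genotypes rest on the labels. The 9 hepatocyte markers summed to 55184 to 62159 FPKM over the 6 libraries. Most of this sum was Alb (31817 to 42940 FPKM), so it mainly follows a single gene. The library NcoR1ΔHep 1 stands apart from the others by transcripts of the sex chromosomes, with 17138 counts of Xist against 6 to 18 and 12 counts of Ddx3y against 2008 to 6275. This is the pattern of a female liver, and the others have that of males. Fits without NcoR1ΔHep 1 therefore leave out the only library with the female pattern, and the part of sex was not tested. Flox 1 and flox 2 stand apart in Dbp, an output gene of the circadian clock, at 0.948 and 3.76 FPKM, against 47.2 FPKM in flox 3 and 92.6, 41.9 and 37.6 FPKM in NcoR1ΔHep. Both lie below every NcoR1ΔHep library, and the part of this difference in the results was not tested. The main results are given below without NcoR1ΔHep 1 and, in an alternative added after the values were seen, with flox 3 as the only control library, which is then assumed to vary like the NcoR1ΔHep libraries.

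No member passed the threshold of the edgeR quasi-likelihood test between the genotypes (adjusted p of 0.05 over 13205 tested genes), nor did any other gene (0% called, smallest adjusted p = 0.931). DESeq2, run without the filter on low counts, called 0 members and 5 genes in all (0.0246% of 20289). At its unadjusted p under 0.05 it had 4 members against 3.02% of these 20289 genes, a wider set than the 13205 of edgeR. At an unadjusted edgeR p under 0.05, 4 of the 33 members were lower in NcoR1ΔHep and 0 were higher, where 3.35% of all tested genes had such a p, 1.92% lower and 1.43% higher. Those 4 were Ern1, Atf6, Hyou1 and Derl3. In FPKM the groups did not overlap in 5 members that were lower (Ern1, Atf6, Hspa5, Edem1 and Derl3), where 4.95% of tested genes were lower in this way, and in 2 that were higher (Eif2ak3 and Dnajb9), where 2.61% were higher. With the TMM factors of the edgeR test, which correct for composition, the same 5 stayed apart, and Eif2ak3 and Dnajb9 overlapped (5.53% of genes lower and 3.29% higher in this way). Of the 33 members 23 had a log2 fold change below 0, against 46.5% of all tested genes, and their median was -0.25, against 0.03 for all tested genes. Without NcoR1ΔHep 1 the count was 23 again and the median -0.12. With flox 3 as the only control library the count was 22 and the median -0.21.

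**Figure D1:**
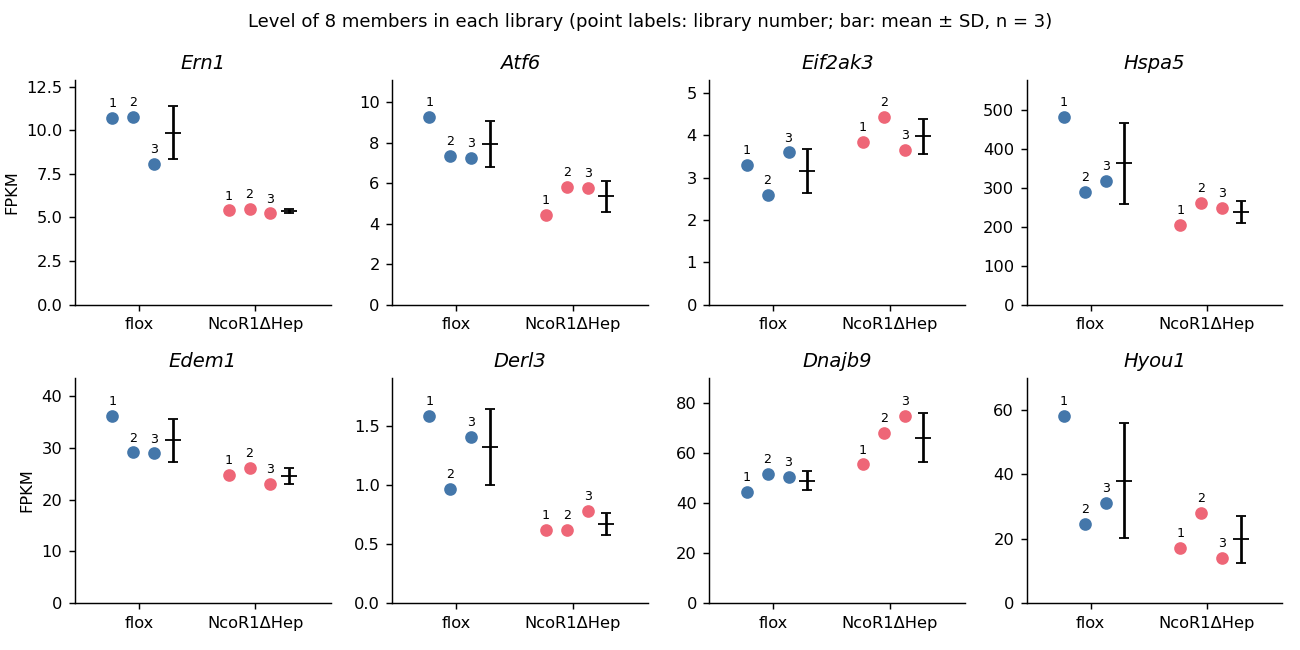
FPKM (y axis, from 0) of 8 members in each flox and NcoR1ΔHep library (points, labelled with the library number), with mean ± SD of 3 libraries (bars). Ern1, Atf6, Hspa5, Edem1 and Derl3 were lower in every NcoR1ΔHep library than in every flox library, Eif2ak3 and Dnajb9 were higher, and Hyou1 overlapped.

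The sensors differed in direction. Ern1, the kinase and endonuclease of the IRE1 arm, was at 10.7, 10.7 and 8.09 FPKM in flox 1 to flox 3 and at 5.40, 5.47 and 5.23 FPKM in NcoR1ΔHep 1 to NcoR1ΔHep 3. The 3 NcoR1ΔHep libraries lay close together and below every flox library. The means were 9.85 ± 1.52 and 5.37 ± 0.124 FPKM (SD, n = 3 each), so that 54.5% of the flox level was left. The log2 fold change of Ern1 was -0.85 (SE 0.21, 95% interval -1.34 to -0.37), the 9th smallest unadjusted p of all tested genes, without passing the adjusted test (edgeR adjusted p = 0.931, DESeq2 adjusted p = 0.735). Leaving out each library in turn gave -0.97 to -0.72, with -0.79 without NcoR1ΔHep 1. Against flox 3 alone, the flox library whose Dbp level lies within the NcoR1ΔHep range and whose Ern1 level is the lowest in flox, it was -0.56 and did not pass the adjusted test.

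Atf6, the membrane-bound transcription factor of the ATF6 arm, was at 9.25, 7.33 and 7.26 FPKM in flox and at 4.44, 5.82 and 5.77 FPKM in NcoR1ΔHep. The groups were apart, with NcoR1ΔHep 1 the lowest. The means were 7.95 ± 1.13 and 5.34 ± 0.780 FPKM, and the log2 fold change was -0.53 (SE 0.23, edgeR adjusted p = 0.931), or -0.35 without NcoR1ΔHep 1 and -0.40 against flox 3 alone. Eif2ak3, the PERK kinase, was at 3.31, 2.59 and 3.60 FPKM in flox and at 3.85, 4.43 and 3.65 FPKM in NcoR1ΔHep. The groups were separated by the narrow step from 3.60 to 3.65 FPKM, and with TMM scaling flox 3 (17.8 CPM, counts scaled to library size) lay above NcoR1ΔHep 1 (17.5 CPM). The log2 fold change of Eif2ak3 was 0.35 (SE 0.20, edgeR adjusted p = 0.931), or 0.45 without NcoR1ΔHep 1 and 0.17 against flox 3 alone.

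The ratio of Ern1 to Eif2ak3, a measure within each library chosen after the values were seen, does not depend on how libraries are scaled. In FPKM it was 3.24, 4.15 and 2.25 in flox 1 to flox 3 and 1.40, 1.23 and 1.43 in NcoR1ΔHep 1 to NcoR1ΔHep 3. The ratio of Atf6 to Eif2ak3 was 2.80, 2.83 and 2.02 in flox and 1.15, 1.31 and 1.58 in NcoR1ΔHep. Since Ern1 and Atf6 were already known to be lower and Eif2ak3 higher without overlap in FPKM, these ratios could not overlap and add no support. The libraries also differed in their balance of long and short transcripts. The 3158 tested genes over 6000 bases long had a median log2 fold change of -0.07 and the 770 of up to 1000 bases one of 0.29. Ern1 (7027 bases), Atf6 (8186) and Edem1 (5912) are long. The 500 tested genes nearest in length had medians of -0.05, -0.12 and -0.06 for these members, so the difference from genes of like length was -0.81 for Ern1, -0.41 for Atf6 and -0.26 for Edem1.

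The transcription factors below the sensors overlapped between the groups. Xbp1, the target of IRE1, was at 126, 94.7 and 125 FPKM in flox and at 63.2, 125 and 85.4 FPKM in NcoR1ΔHep. Only NcoR1ΔHep 1 and NcoR1ΔHep 3 lay below the flox range. Its log2 fold change was -0.30 (SE 0.29, edgeR adjusted p = 0.931), or -0.04 without NcoR1ΔHep 1. Atf4, the activator favoured when PERK is active, was at 38.6, 27.0 and 32.2 FPKM in flox and at 53.4, 31.3 and 24.9 FPKM in NcoR1ΔHep. Ddit3, which encodes the pro-apoptotic factor CHOP, was at 1.56, 1.18 and 1.60 FPKM in flox and at 3.91, 1.11 and 1.45 FPKM in NcoR1ΔHep. For both, NcoR1ΔHep 1 was the highest of the 6 libraries and the other 2 NcoR1ΔHep libraries lay within or below the flox range. The log2 fold changes were 0.17 (SE 0.27) for Atf4 and 0.57 (SE 0.44) for Ddit3, and -0.12 and -0.06 without NcoR1ΔHep 1. ATF4 and spliced XBP1 are set by translation and splicing, which counts per gene do not measure.

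The 4 chaperones of the Hsp70 and Hsp90 families had log2 fold changes below 0 (median -0.45), and none passed the adjusted test. Without NcoR1ΔHep 1 the median was -0.34 with 4 of 4 below 0, and against flox 3 alone it was -0.14 with 2 of 4, as Hsp90b1 (0.11) and Hspa13 (0.33) came out above 0. Hspa5 (BiP), which binds nascent chains and holds the sensors inactive, was at 481, 289 and 318 FPKM in flox and at 206, 261 and 248 FPKM in NcoR1ΔHep. Every NcoR1ΔHep library was below every flox library, and flox 1 was well above the rest. The means were 363 ± 104 and 238 ± 28.9 FPKM, with a log2 fold change of -0.56 (SE 0.26, 95% interval -1.15 to 0.04, edgeR adjusted p = 0.931). It was -0.37 without flox 1 and -0.40 without NcoR1ΔHep 1. Hyou1, the large Hsp70 relative that exchanges nucleotide on BiP, was at 58.2, 24.5 and 31.0 FPKM in flox and at 17.2, 28.1 and 13.9 FPKM in NcoR1ΔHep. The groups overlapped through flox 2 and NcoR1ΔHep 2, and the log2 fold change of -0.90 (SE 0.34) was -0.54 without flox 1 and -0.76 without NcoR1ΔHep 1. Hsp90b1 (GRP94) and Hspa13 had log2 fold changes of -0.31 and -0.33, with overlapping groups, and -0.28 and -0.08 without NcoR1ΔHep 1.

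Markers of other cell types differed between the libraries too. In flox 1, where Hspa5 and Hyou1 were highest, 10 markers of liver sinusoidal endothelium summed to 156 FPKM, against 56.4 and 88.9 FPKM in flox 2 and flox 3 and 94.8, 51.9 and 38.8 FPKM in NcoR1ΔHep. All 10 were lower in NcoR1ΔHep by log2 fold change (median -0.69), with -1.08 without NcoR1ΔHep 1 and -0.29, 9 of 10 lower, without flox 1. In all 6 libraries, 2 of the 10 had an unadjusted edgeR p under 0.05, both lower, where 1.92% of all tested genes were lower at such a p. The 10 Kupffer cell and macrophage markers, of which 8 were lower (median -0.36, or -0.22 without NcoR1ΔHep 1 and -0.10 without NcoR1ΔHep 3), summed to 175 to 278 FPKM in flox and 116 to 293 FPKM in NcoR1ΔHep. The part of either in the chaperone result was not tested. In whole liver, fewer cells of a type and less RNA per cell cannot be told apart. The 9 hepatocyte markers had a median log2 fold change of 0.16, with 3 of 9 lower.

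Among the co-chaperones and secreted factors, Dnajb9 differed in direction from the rest. Dnajb9 (ERdj4), an XBP1 target that works with BiP, was at 44.7, 51.8 and 50.6 FPKM in flox and at 55.6, 68.3 and 75.1 FPKM in NcoR1ΔHep. The FPKM groups were apart, and with TMM scaling NcoR1ΔHep 1 (96.8 CPM) lay below flox 2 (104 CPM). The log2 fold change was 0.46 (SE 0.25, edgeR adjusted p = 0.931), or 0.64 without NcoR1ΔHep 1. The 500 genes nearest to Dnajb9 in length (1865 bases) had a median of 0.12. Dnajb11 (ERdj3), which brings unfolded clients to BiP, was at 40.4, 26.9 and 36.0 FPKM in flox and at 24.2, 31.9 and 25.4 FPKM in NcoR1ΔHep, with overlap. Its log2 fold change was -0.31 (SE 0.22), or -0.17 without NcoR1ΔHep 1. Dnajc3, Sdf2l1 and Manf had log2 fold changes of -0.47, -0.21 and -0.25, all with overlapping groups, and -0.20, -0.0091 and -0.46 without NcoR1ΔHep 1.

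The 7 oxidoreductases and lectins had log2 fold changes from -0.79 for Creld2 to -0.01 for Pdia3 (median -0.22), where Pdia3 came out above 0 with DESeq2, RLE factors or no filter, and the groups of all 7 overlapped. Without NcoR1ΔHep 1, 4 of the 7 were lower (median -0.06). Creld2, a secreted ER stress factor with disulfide isomerase activity, was at 50.7, 21.6 and 28.5 FPKM in flox and at 25.4, 22.4 and 9.45 FPKM in NcoR1ΔHep. Its spread came from a high flox 1 and a low NcoR1ΔHep 3, and the log2 fold change of -0.79 (SE 0.37) was -0.47 without flox 1, -0.52 without NcoR1ΔHep 3 and -0.99 without NcoR1ΔHep 1. Pdia4 (ERp72), a disulfide isomerase, was at 119, 79.5 and 78.0 FPKM in flox and at 64.9, 80.3 and 68.7 FPKM in NcoR1ΔHep (log2 fold change -0.33, SE 0.23, or -0.20 without NcoR1ΔHep 1 and -0.10 against flox 3 alone). The most abundant members per length belong to this class. The lectin Calr was at 567 ± 56.2 FPKM in flox and 543 ± 75.3 FPKM in NcoR1ΔHep, and the isomerase P4hb at 528 ± 28.2 and 446 ± 59.4 FPKM. These levels overlapped between the groups. The ratio of Hspa5 to P4hb in FPKM, chosen after the values were seen, was 0.866, 0.578 and 0.600 in flox and 0.493, 0.508 and 0.610 in NcoR1ΔHep, with overlap through NcoR1ΔHep 3.

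The ERAD genes, which carry misfolded proteins out of the ER for breakdown, were divided: 4 of 7 lay below 0 (median -0.13), and Derl1, at 0.01, was below 0 as well with total counts or FPKM. Edem1, a mannosidase-like protein that picks glycoproteins for disposal, was at 36.3, 29.1 and 29.0 FPKM in flox and at 24.8, 26.1 and 23.0 FPKM in NcoR1ΔHep. Each NcoR1ΔHep library was below each flox library. The log2 fold change was -0.32 (SE 0.19, edgeR adjusted p = 0.931), with a range of -0.37 to -0.26 when each library was left out, the last without NcoR1ΔHep 1, and -0.21 against flox 3 alone. Derl3, a membrane protein of the retrotranslocation channel, was at 1.59, 0.967 and 1.41 FPKM in flox and at 0.616, 0.618 and 0.778 FPKM in NcoR1ΔHep. The groups were apart. These levels rest on 50 to 81 counts a library in flox and 31 to 39 in NcoR1ΔHep, and the log2 fold change was -0.93 (SE 0.38, 95% interval -1.79 to -0.06, edgeR adjusted p = 0.931), or -0.80 without NcoR1ΔHep 1. Its relative Derl2 had 0.24, or 0.19 without NcoR1ΔHep 1. Derl1 was the steadiest member in FPKM, its highest library at 1.25 times the lowest, though not with TMM scaling. Herpud1, Syvn1 and Sel1l, parts of the ubiquitin ligase complex, had log2 fold changes of 0.14, -0.13 and -0.25 with overlapping groups, and 0.03, -0.34 and -0.12 without NcoR1ΔHep 1.

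The ATF4 targets, which serve amino acid supply and recovery from stress, overlapped between the genotypes. Asns, the asparagine synthetase, was at 2.71, 2.0 and 2.12 FPKM in flox and at 0.203, 0.907 and 2.44 FPKM in NcoR1ΔHep. NcoR1ΔHep 1 was the lowest, with 18 counts against 182 to 243 in flox, while NcoR1ΔHep 3 lay within the flox range. The log2 fold change of -0.83 (SE 0.74) was -0.30 without NcoR1ΔHep 1 and -2.06 without NcoR1ΔHep 3. In NcoR1ΔHep 1, therefore, Atf4 and Ddit3 were the highest of the 6 libraries and Asns the lowest. Ppp1r15a (GADD34), which returns eIF2α to its unphosphorylated form, was at 4.04, 2.21 and 6.77 FPKM in flox and at 5.97, 7.23 and 2.73 FPKM in NcoR1ΔHep (log2 fold change 0.29, SE 0.44, or 0.26 without NcoR1ΔHep 1 and -0.36 against flox 3 alone). Chac1, which degrades glutathione, ran from 0.734 FPKM in NcoR1ΔHep 3 to 9.22 FPKM in NcoR1ΔHep 2, a 12.6-fold range within NcoR1ΔHep, and its log2 fold change of 0.06 was 0.28 without NcoR1ΔHep 1. Trib3, a pseudokinase that restrains ATF4, was at 1.38 to 3.11 FPKM in flox and 1.36 to 3.51 FPKM in NcoR1ΔHep, and its log2 fold change of 0.08 was -0.29 without NcoR1ΔHep 1.

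**Figure D2:**
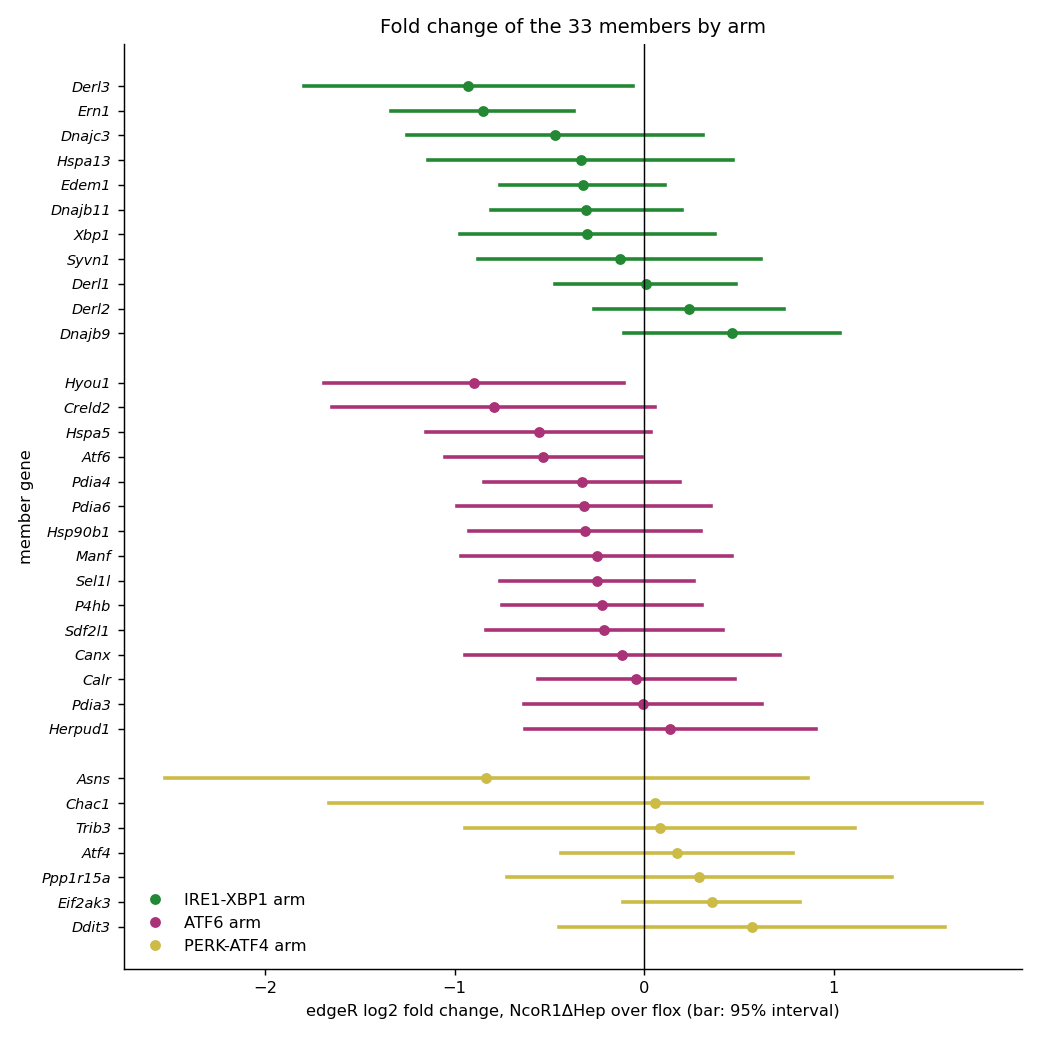
edgeR log2 fold change of NcoR1ΔHep over flox (x axis) for the 33 members (y axis), with 95% intervals as bars, coloured by arm. In the ATF6 arm 14 of 15 points lie below 0, in the PERK-ATF4 arm 1 of 7, and most intervals include 0. Of all tested genes 46.5% lie below 0.

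Each member was placed in 1 arm by textbook convention, knowing that many targets answer to both ATF6 and spliced XBP1. Of all tested genes 46.5% were lower, at a median of 0.03. In the ATF6 arm 14 of 15 genes were lower (13 with DESeq2, RLE factors or no filter, through Pdia3), at a median of -0.25 (quartiles -0.43 and -0.16). In the IRE1-XBP1 arm 8 of 11 were lower (median -0.31, quartiles -0.40 and -0.06). In the PERK-ATF4 arm 1 of 7 was lower (2 in FPKM or with the replicate number as a block, where Chac1 joined Asns), at a median of 0.17 (quartiles 0.07 and 0.32). Without NcoR1ΔHep 1 the counts of lower genes were 11 of 15, 8 of 11 and 4 of 7, with medians of -0.12, -0.17 and -0.06. With 1 library left out, the PERK-ATF4 median was below 0 in this case alone, where Eif2ak3, Chac1 and Ppp1r15a stayed above 0. Leaving out flox 3 took the PERK-ATF4 median to 0.47, and leaving out flox 2 took it to 0.10. Against flox 3 alone the counts were 11 of 15, 8 of 11 and 3 of 7, with medians of -0.23, -0.21 and 0.17. The difference between arms was not tested.

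The mean level of each arm, taken as log2(CPM + 1) less each gene's average, is given by library. The IRE1-XBP1 arm was at 0.14, 0.12 and 0.10 in flox and at -0.33, -0.03 and 0.00 in NcoR1ΔHep. The ATF6 arm was at 0.26, 0.11 and 0.12 in flox and at -0.35, 0.00 and -0.14 in NcoR1ΔHep. In both arms each NcoR1ΔHep library was below each flox library, and NcoR1ΔHep 1 was the lowest. Both means include members already known to be lower without overlap, so this separation adds no independent support. The PERK-ATF4 arm was at -0.02, -0.16 and 0.19 in flox and at 0.09, 0.09 and -0.19 in NcoR1ΔHep, with full overlap.

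**Figure D3:**
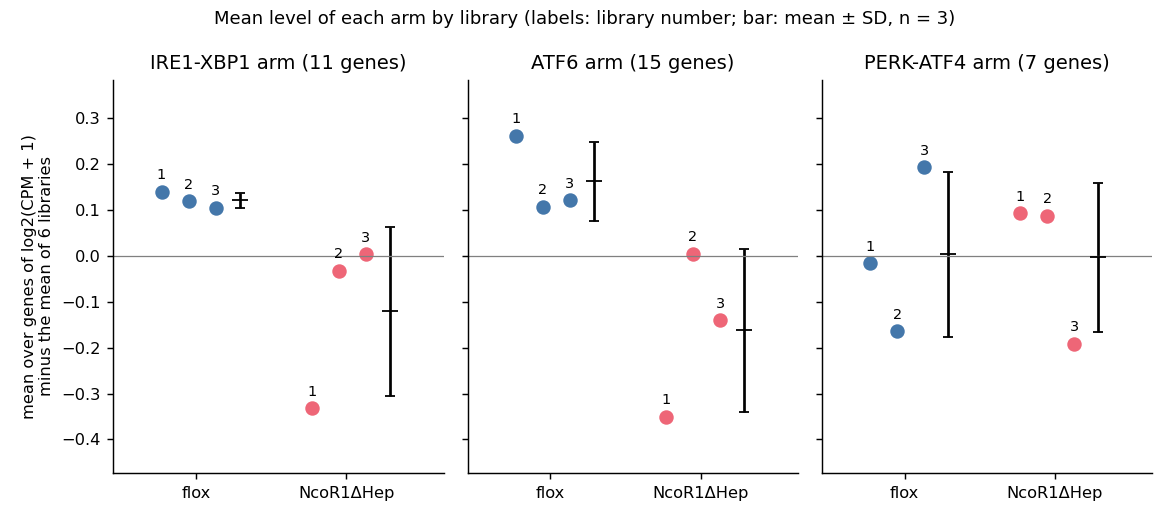
Mean over the genes of each arm of log2(CPM + 1) minus the gene's mean of 6 libraries (y axis) in each flox and NcoR1ΔHep library (points, labelled with the library number), with mean ± SD of 3 libraries (bars). The IRE1-XBP1 and ATF6 arms, which include members already known to be lower without overlap, are lower in all 3 NcoR1ΔHep libraries. The PERK-ATF4 arm overlaps.

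The 9 members with an ERSE match in the printed sequences all had log2 fold changes below 0 (median -0.32), while 10 of the 19 members with a window but no match were below 0 (median -0.01). Without NcoR1ΔHep 1 these counts were 7 of 9 and 12 of 19, with medians of -0.28 and -0.06. The 19 without a match include all 7 genes of the PERK-ATF4 arm, of which 1 was lower. The contrast therefore overlaps with the split by arm, and the part of the element was not tested. Of 9 other tested genes with a match, 1 was lower (median 0.37), or 5 without NcoR1ΔHep 1 (median -0.09). The 3 members with the ATF4 element, Asns, Chac1 and Herpud1, had -0.83, 0.06 and 0.14.

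**Figure D4:**
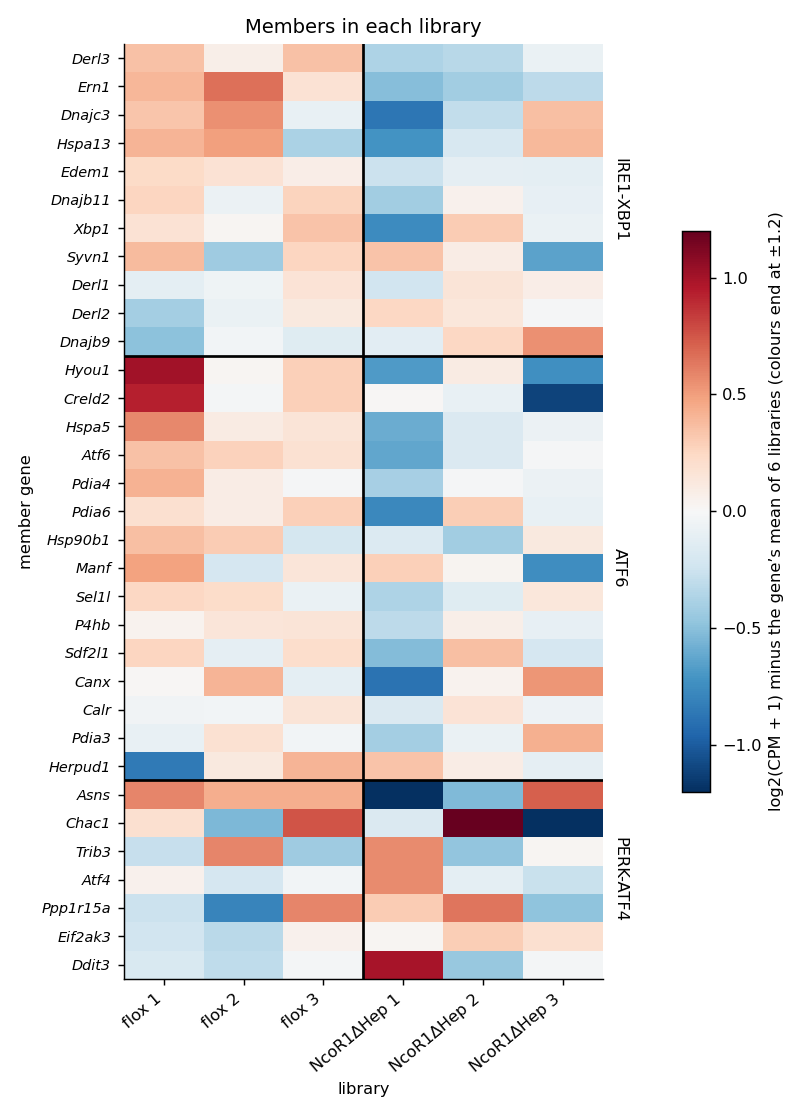
Level of the 33 members (rows, by arm) in the 6 libraries (columns), as log2(CPM + 1) minus the gene's mean of 6 libraries, with colours ending at ±1.2. In NcoR1ΔHep 1, 8 of 11 genes of the IRE1-XBP1 arm and 10 of 15 of the ATF6 arm are at their lowest, and Ddit3 and Atf4 at their highest.

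The rest of the pathway was read from 6 lists of genes outside the 33. None of their genes passed the adjusted edgeR test. Of all tested genes, 46.5% had a log2 fold change below 0, and 3.35% had an unadjusted edgeR p under 0.05 (1.92% lower and 1.43% higher). In FPKM, 4.95% were lower and 2.61% higher without overlap between the groups. Of 24 other ER folding genes tested, 13 were lower (median log2 fold change -0.06, with 12 lower without NcoR1ΔHep 1) and 2 had an unadjusted p under 0.05, both lower. Uggt1, which senses unfolded glycoproteins, was at 11.7, 8.34 and 9.01 FPKM in flox and at 5.61, 7.83 and 5.75 FPKM in NcoR1ΔHep (log2 fold change -0.56, SE 0.22, or -0.42 without NcoR1ΔHep 1), and the groups were apart. Ero1b, the oxidase that recharges the disulfide isomerases, had -0.66 (SE 0.27, or -0.47 without NcoR1ΔHep 1). Of 22 other ERAD genes, 10 were lower (median 0.02). With 1 library left out, their median ran from -0.27 (without NcoR1ΔHep 3, 16 lower) to 0.09 (without NcoR1ΔHep 1, 8 lower). In all 6 libraries, 1 of the 22 had an unadjusted p under 0.05. That gene was Ube2g2, a ubiquitin-conjugating enzyme, at 13.6, 11.3 and 14.2 FPKM in flox and 7.50, 10.5 and 6.31 FPKM in NcoR1ΔHep, and the groups were apart (log2 fold change -0.67, SE 0.23, or -0.55 without NcoR1ΔHep 1). Selenos, a selenoprotein of the same machinery, had -0.40 (SE 0.20, or -0.35 without NcoR1ΔHep 1).

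Of 29 genes of ER translocation, glycosylation and COPII transport, 19 were lower (median -0.04), 0 with an unadjusted edgeR p under 0.05. Sec24d, a COPII coat protein, was at -0.39 on the log2 scale (SE 0.22, or -0.34 without NcoR1ΔHep 1), with overlap. Kdelr2, which returns chaperones to the ER, was at 47.2, 40.2 and 50.3 FPKM in flox and at 64.2, 53.9 and 55.3 FPKM in NcoR1ΔHep (log2 fold change 0.35, SE 0.20, and 0.35 without NcoR1ΔHep 1), and the groups were apart. In this list 2 of 29 genes were higher without overlap, against 2.61% of all tested genes, and 0 were lower, against 4.95%. The 2 were Kdelr2 and Ssr1, a subunit of the translocon-associated complex named after its values were seen. Of 30 genes of the integrated stress response, 17 were lower (median -0.07), 0 with an unadjusted p under 0.05. Ddit4, an inhibitor of mTORC1, had 0.81 (SE 0.49), or 0.37 without NcoR1ΔHep 1, and Atf5, a relative of Atf4, had -0.39 (SE 0.26), or -0.53 without NcoR1ΔHep 1. Of 18 other ER stress regulators 10 were lower (median -0.07). Atf6b, the close relative of Atf6, was at 8.52, 4.62 and 4.18 FPKM in flox and at 4.18, 4.21 and 2.77 FPKM in NcoR1ΔHep, high in flox 1 alone (log2 fold change -0.60, SE 0.27, or -0.63 without NcoR1ΔHep 1). Bcl2l11, which encodes the pro-apoptotic BIM, was at 0.256, 0.268 and 0.241 FPKM in flox and at 0.375, 0.306 and 0.422 FPKM in NcoR1ΔHep (log2 fold change 0.55, SE 0.30, or 0.62 without NcoR1ΔHep 1), and the groups were apart. Transcripts that IRE1 is known to degrade had 4 of 6 higher (median 0.16). With 1 library left out, the median of these transcripts ran from -0.14 (without NcoR1ΔHep 2, 4 of 6 lower) to 0.43 (without NcoR1ΔHep 3, 2 of 6 lower). The best known of them, Bloc1s1, was at 49.9, 42.8 and 57.7 FPKM in flox and at 118, 56.8 and 49.8 FPKM in NcoR1ΔHep, so that its log2 fold change of 0.57 (SE 0.31) was 0.18 without NcoR1ΔHep 1. Scara3, a scavenger receptor family member, had 0.92 (SE 0.52), or 0.96 without NcoR1ΔHep 1. Its level was low, at 0.198, 0.287 and 0.316 FPKM in flox and 0.524, 0.822 and 0.201 FPKM in NcoR1ΔHep, with overlap.

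Cells other than hepatocytes with a large ER were also looked for. Of 8 exocrine pancreas markers 3 were in the table. Ctrb1 had 0 counts in each library, and Cela1, the single marker tested, had a log2 fold change of -0.09. Of 9 plasma and B cell markers 5 were tested (2 lower, median 0.18). The 7 in the table summed to 52.2 to 66.9 FPKM in flox and 47.4 to 64.1 FPKM in NcoR1ΔHep, nearly all of it Sdc1 (43.1 to 63.6 FPKM), which hepatocytes also express, so the sum does not describe these cells. Jchain, the joining chain of secreted antibodies, was at 0.326 to 0.965 FPKM in flox and 1.06 to 1.79 FPKM in NcoR1ΔHep. Its groups did not overlap (log2 fold change 1.08), where 2.61% of all tested genes were higher in this way. Cd79a, of the B cell receptor, had -0.99. The markers tested of neutrophils (4, median -0.14), T and NK cells (7, median 0.03), cholangiocytes (4, median 0.67) and stellate cells (9, median 0.11) summed to 3.06 to 22.3, 1.93 to 3.03, 25.0 to 33.6 and 90.1 to 121 FPKM in flox and to 6.84 to 12.0, 1.58 to 3.19, 21.9 to 102 and 125 to 133 FPKM in NcoR1ΔHep. Without NcoR1ΔHep 1 these medians were 0.04, -0.63, 0.79 and 0.36. Without flox 3 the neutrophil median was 1.25, and without NcoR1ΔHep 2 the cholangiocyte median was -0.14. The cholangiocyte sum was nearly all Spp1, at 23.3 to 32.7 FPKM in flox and 21.0 to 99.0 FPKM in NcoR1ΔHep. Most of the stellate cell sum was Dcn, at 60.2 to 80.8 FPKM in flox and 80.6 to 107 FPKM in NcoR1ΔHep. These sums therefore mainly follow single genes. The part of these cell types in the results was not tested.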

How the data were processed

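The authors deposited 2 tables with 1 column per library. The first holds raw counts for each gene symbol as whole numbers. The second holds FPKM, in which, from the values, each deposited count is scaled by a gene length and the library's total. The submitters' processing notes name GRCm38, mm10 and hg38 without a role, with aligner, counting program and strand use not given in the sources used here. Per the labels' protocols, total RNA went into a SMARTer mRNA library kit.

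Genes were kept with filterByExpr (minimum count 10, minimum total 15), which left 13205 genes. TMM factors and the quasi-likelihood test of edgeR 4.0.16 (R 4.3.3, limma 3.58.1, DESeq2 1.42.0) compared NcoR1ΔHep with flox over all genes, two-sided, with Benjamini-Hochberg adjustment. The procedure was tested on simulated data. Motifs were searched in RefSeq windows (GRCm38.p6). Gene lengths are those implied by count and FPKM.

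The members and lists were chosen with earlier results of these data known. Values in each library are given for the sensors, the transcription factors, Hspa5, the 2 members of each other role with the smallest edgeR p, and any member whose FPKM groups do not overlap. From each further pathway list the 2 genes with the smallest p are named. Other names were chosen after their values were seen. Alternatives were DESeq2, RLE factors, total counts only, no filter, CPM of at least 1 in 3 libraries, limma on log2(FPKM + 1) and log2(FPKM + 0.1) with FPKM of at least 0.5 in 3 libraries, log2(FPKM + 1) without a filter, the replicate number as a block, and leaving out each library.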

Additional observations from a re-analysis of the deposited data

How the results depend on the processing

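Under the alternatives the count of genes passing the adjusted threshold was 0, except 5 with DESeq2, none of them a member. With the replicate block it was 0 as well, 24 members were lower and the median of the members was -0.28. Same-numbered libraries did not deviate together (correlation across genes of 0.025, -0.38 and -0.52 for numbers 1, 2 and 3), so the numbers were not taken as pairs. Across numbers the highest values were 0.63 for flox 2 with NcoR1ΔHep 3 and 0.32 for flox 3 with NcoR1ΔHep 2. Leaving out each library in turn gave medians of -0.33 to -0.12 for all members, -0.36 to -0.17 for the IRE1-XBP1 arm, -0.38 to -0.12 for the ATF6 arm and -0.060 to 0.47 for the PERK-ATF4 arm, where the value below 0 came without NcoR1ΔHep 1. Atf4 ranged from -0.12 to 0.32 and Ddit3 from -0.060 to 0.88, both below 0 without NcoR1ΔHep 1 alone, and Ppp1r15a from -0.0069 (without flox 2) to 0.80, and it was -0.36 against flox 3 alone, an alternative added after the values were seen. The other 13 members given by library kept their direction under every alternative, none passing the adjusted threshold. TMM-scaled CPM in place of FPKM, added after the values were seen, left 0 higher members without overlap. Derl3, with 31 to 81 counts, and Asns, with 18 in NcoR1ΔHep 1, are limited by depth.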

Other observations

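Outside the 33 members, 9 tested genes had an ERSE match in their upstream window. Of these, 1 was lower in NcoR1ΔHep and 8 were higher (median log2 fold change 0.37), and without NcoR1ΔHep 1 the numbers were 5 lower and a median of -0.09. The lower gene was Ero1b, the only ER folding enzyme among the 9 in the lists used here. The 92 other tested genes with TGACGTGG had 54 lower (median -0.06), and the 271 with the ATF4 element 132 lower (median 0.00).

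Some members varied between libraries of the same genotype, a pattern chosen after the values were seen. Canx, the membrane-bound lectin, was at 55.7, 100 and 125 FPKM in NcoR1ΔHep 1 to NcoR1ΔHep 3, and Pdia3, the isomerase that works with it, at 187, 223 and 281 FPKM. Dnajc3 was at 24.0, 33.8 and 47.3 FPKM and Hspa13 at 6.03, 8.32 and 11.2 FPKM in the same libraries. All 4 were lowest in NcoR1ΔHep 1. Manf, a secreted stress factor, was at 176, 141 and 72.5 FPKM there and Syvn1, the ERAD ubiquitin ligase, at 19.9, 15.8 and 8.32 FPKM, both lowest in NcoR1ΔHep 3. Genes of up to 1000 bases had median deviations of 0.39, 0.01 and -0.13 on the log2 scale in these 3 libraries, and genes over 6000 bases had -0.08, -0.09 and 0.02. Manf is 868 bases long and Syvn1 3676, while Pdia3 is 2643, Canx 4289, Hspa13 5032 and Dnajc3 5190. Pdia3 is thus shorter than Syvn1, but it rose from NcoR1ΔHep 1 to NcoR1ΔHep 3 where Syvn1 fell. The part of transcript length in this pattern was not tested.

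Herpud1 was the lowest of the 6 libraries in flox 1 (91.8 FPKM, against 124 to 203 FPKM in the others), where Hspa5, Hyou1 and Creld2 were the highest.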
